A study of Mus musculus with 56 samples.

Results

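The 227 regions described here are H2A.Z peaks that the authors list as lower after induction of Rnaseh1 and that lie at the end of a transcript. They were selected from the authors' list of 9077 lower peaks by the annotation that the list carries: 135 are annotated TTS, the transcription termination site, and 92 are annotated 3' UTR. They make up 2.50% of the lower list and come out of a set of 61420 H2A.Z peaks, of which 14.8% are listed as lower. Because the lower list itself chose them, that all 227 are lower is a description and supports nothing further.

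The cells were RHKI(E14Tg2a) mouse embryonic stem cells with a knocked-in, doxycycline-inducible, HA-tagged Rnaseh1, which both groups carry. Of the H2A.Z libraries, 4 are H2A.Z Dox, with doxycycline at 500 ng/ml over 48 hours, and 4 are H2A.Z control, without it. The culture medium of both groups was 2i/LIF with 2% FBS, the GSK3 inhibitor CHIR-99021 at 3 µM and the MEK inhibitor PD0325901 at 1 µM. H2A.Z was mapped by CUT&Tag, in which an antibody directs a transposase to the chromatin that holds its target. Labels list 56 libraries for 10 targets, and the 48 libraries for targets other than H2A.Z are not analysed here. The study's text also names a ZX-1 line that no sample label gives, so doxycycline itself and Rnaseh1 induction cannot be told apart. The list names are the source for the direction, in which lower means less H2A.Z with Dox than in control. The files used hold positions and annotation only, with no value per library, fold change or p-value, so depth and the spread between the 4 replicates are unknown, no comparison of conditions was tested, and peaks close to the authors' threshold cannot be told from the rest. Nor can the identity of the cells, or the induction, be checked from peak positions.

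H2A.Z is a variant of histone H2A that is placed into nucleosomes by dedicated exchange complexes and is best known at active and poised promoters, where it flanks the start site, and at enhancers. R-loops are RNA:DNA hybrids with a displaced DNA strand. They form behind RNA polymerase at starts and also past polyadenylation sites, where they have been linked to pausing and termination. RNase H1 degrades the RNA of such hybrids. A transcript end can also be close to a start, because genes in a compact stretch of genome follow each other head to tail, and because a microRNA hairpin is so short that its start and its end can fall under one peak.

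The case of short genes is shown by microRNA sequences. Of the 227 peaks, 17 are annotated to the end of a microRNA gene, and RefSeq (GRCm38.p6) gives mature sequences for 16 of these genes. The 25 mature sequences have 25 different seeds, so no seed family is repeated. All but 3 of the sequences lie under the annotated peak, at 14 of the genes. Printed here are mature strands of 4 familiar microRNAs among those under a peak, with the seed (bases 2 to 8) in capitals.
mmu-miR-208a-3p: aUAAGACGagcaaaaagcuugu
mmu-miR-92b-3p: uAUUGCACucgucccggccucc
mmu-miR-194-5p: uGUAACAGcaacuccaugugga
mmu-miR-375-5p: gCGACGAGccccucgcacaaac
The hairpin of miR-208a, a heart-muscle microRNA, lies under a peak of 4709 bp. That of miR-92b lies under a peak of 4652 bp, that of miR-194 under one of 1684 bp and that of miR-375, known from pancreatic islets, under one of 800 bp.

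Starts of protein-coding genes also lie inside transcript-end peaks. The 30 bases just before the start, from RefSeq (GRCm38.p6) and 5' to 3' on the gene's strand, are shown for 4 genes with each CpG in capitals, because they show how different the promoters under these peaks are. Foxc1 and Apoa5 are themselves the annotated genes, whereas Abca2 follows Fut7, and Vars2 follows Gtf2h4.
Foxc1, chr13:31806616-31806645, plus strand: tCGcctgggtgaCGgatgctcaaaagttca
Apoa5, chr9:46268603-46268632, plus strand: tgcccagaacCGagcaggtgagcttacatg
Abca2, chr2:25428569-25428598, plus strand: ttaagtgggggCGaCGggCGCGggCGCGac
Vars2, chr17:35667593-35667622, minus strand: cccCGcccaCGcatgCGCGCGcacctCGcc
Abca2 and Vars2 have 6 CpGs each in this stretch, Foxc1 has 2 and Apoa5 has 1. Among the 35 starts under transcript-end peaks that the table holds, 82.9% have a CpG there, beside 66.2% of 21263 protein-coding starts. From 250 bases before to 50 after the start, the median GC content of these 35 was 60.0%, beside 56.3% over all protein-coding starts. The median ratio of observed to expected CpG in the same stretch differed little, at 0.603 beside 0.567. For both measures the middle ranges between the quartiles overlapped. The 35 include the start of Cistr, a lncRNA. All of these comparisons are with starts taken with or without an H2A.Z peak, and starts under other H2A.Z peaks were not compared.

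What the transcript-end peaks cover differed between the annotations. Of the 135 TTS peaks, 32 (23.7%, 95% exact Clopper-Pearson interval 16.8 to 31.8%) reach across the start of a gene other than the one that ends there, 17 lie at a microRNA gene and 3 reach across the start of their own gene. The other 83 (61.5%) cover no nearest start. A microRNA gene has no 3' UTR, so peaks at its end can be annotated TTS only. Of the 92 3' UTR peaks, 2 cover another gene's start, 5 their own gene's start and 85 (92.4%, 84.9 to 96.9%) no nearest start. Taken over both annotations, 171 of 227 do not cover the nearest start: 168 (74.0%) at genes other than microRNAs, and 3 of the microRNA peaks. Shares here and below are of peaks, their intervals cover counting error only, and peaks are not replicates of the treatment.

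**Figure D1:**
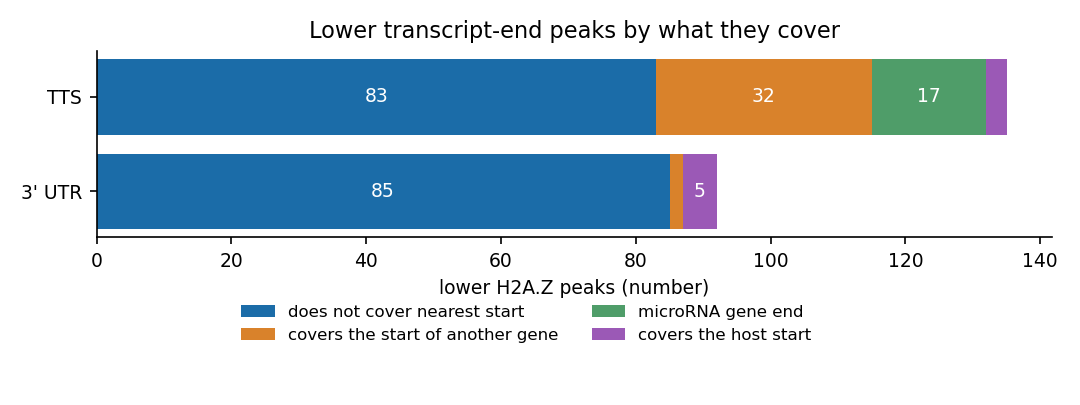
Number of lower transcript-end peaks (horizontal axis) annotated TTS and 3' UTR, divided by what the peak covers. The 32 TTS peaks over another gene's start have few counterparts among 3' UTR peaks, of which 85 cover no nearest start. The 17 at microRNA genes can be TTS only, because these genes have no 3' UTR.

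Position within the gene follows from how the annotation is made, which uses the centre of the peak. TTS peaks, microRNA genes left out, had their centre a median of 475 bp past the gene end (n = 117), and 3' UTR peaks had a median position of -1374 bp, before it (n = 92). The farthest TTS centre lay 975 bp past the end. A few lie far inside the gene because a shorter transcript ends there: the TTS peak of Bcor, a corepressor gene, has its centre at -97730 bp relative to the end of the full-length gene and is the only one of the 227 on the X chromosome, which holds 302 of the other 8850 lower peaks. Host genes of 3' UTR peaks were longer, with a median of 28.5 kb, than those of TTS peaks, with a median of 11.1 kb without microRNA genes. The median distance to the nearest start, which need not be the host's, was 11.8 kb for 3' UTR peaks. For all 135 TTS peaks, those at microRNA genes included, it was 2.81 kb.

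**Figure D2:**
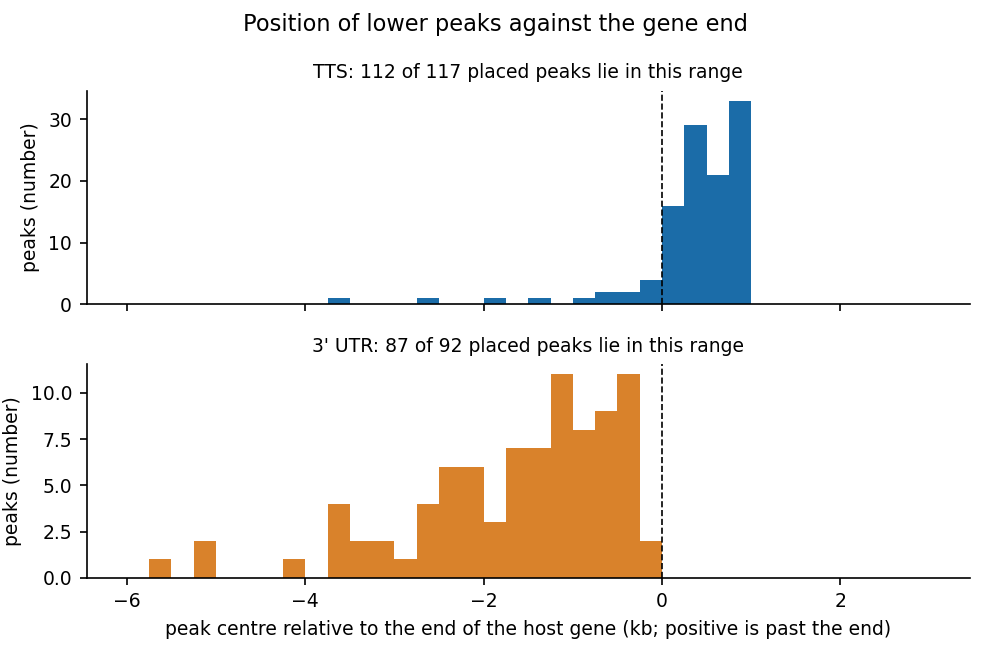
Peak centres relative to the end of the host gene, in kb on the horizontal axis with positive values past the end, as numbers of peaks in bins of 0.25 kb. TTS centres gather in the first 1 kb past the end and 3' UTR centres before it, with 112 of 117 and 87 of 92 placed peaks inside the plotted range.

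Where both strands are in the table, the peaks over a neighbour's start are mostly head-to-tail pairs. In 18 of these 22 pairs the neighbour runs in the direction of the gene that ends. In 29 of 34 the centre lies downstream of the neighbour's start, at a median distance of 263 bp for these 29. The annotation limits this side and distance. Among all transcript-end peaks, the centres closest to their nearest start lie at -1006 bp and 106 bp, with negative values upstream. A centre downstream of the start is therefore no evidence of head-to-tail order. The pair Ifnar2 and Il10rb, which encode receptor subunits for type I interferons and interleukin-10, has a peak of 1421 bp whose centre is 311 bp past the Il10rb start. At Septin5 and its neighbour Gp1bb, a platelet glycoprotein gene, a peak of 2978 bp is centred 512 bp past the Gp1bb start. At Cd4, the T-cell coreceptor, a peak of 1547 bp is centred 184 bp past the start of Gpr162. At Slc10a4l the peak of 1725 bp is centred 381 bp past the start of Zar1, a maternal oocyte factor, and at Cnpy4 the peak of 1423 bp is centred 434 bp past the start of Mblac1. Peaks at Arhgap39 (1750 bp) and Ccdc9 (1547 bp) belong to the same group. These peaks carry the annotation of an end and cover a start, and which of the transcripts the lower H2A.Z goes with cannot be told apart from the peak.

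At Dlx1, a homeobox gene of forebrain interneurons, the ends of both genes of an antisense pair are lower. The TTS peak of Dlx1as, 2483 bp wide (chr2:71528816-71531298), is centred 612 bp past the start of Dlx1, and the TTS peak of Dlx1 itself, 1240 bp wide (chr2:71534158-71535397), starts 2859 bp further on.

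In the whole peak set, ends near a start and ends away from one also differed. For every gene whose strand the RefSeq tables give, peaks of the set were sorted by whether the centre lay from 100 bp before to 1000 bp after the gene end. Of 931 such peaks 192 were lower, or 20.6% (18.1 to 23.4%). Of the 227, 93 lie in this zone, 68 in gene bodies and 55 outside genes, so many of them count in the zones that follow. Among the 292 of the 931 that also lay within 1 kb of a start, 35.6% were lower (30.1 to 41.4%). Among the 639 that did not, 13.8% were lower (11.2 to 16.7%). Gene starts stood at 28.2%, gene bodies away from both ends at 14.5% and peaks outside genes at 10.8%. With protein-coding genes alone, ends away from starts stood at 19.5% (15.3 to 24.3%) and gene bodies at 16.4%. Ends of microRNA genes stood at 39.1% (25 of 64). All of them count as within 1 kb of a start, which follows from the length of these genes. The start counted is that of the annotated microRNA gene, and the 17 that host peaks here are 53 to 137 bp long. The lists that chose the 227 made these shares too, so they describe the set and were not tested.

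**Figure D3:**
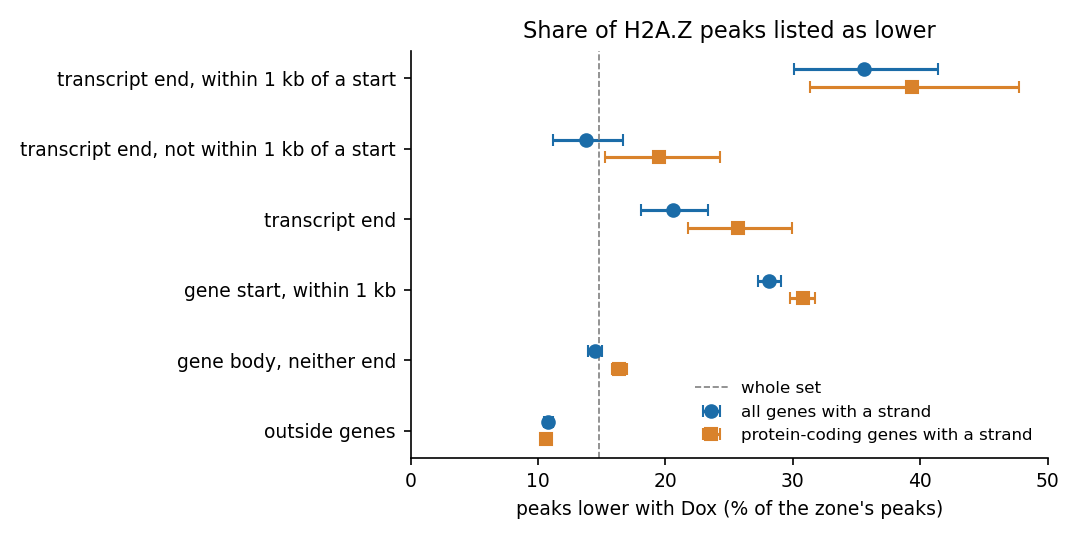
Peaks lower with Dox as a percentage of all H2A.Z peaks of a zone (horizontal axis), with 95% exact intervals, for all genes with a known strand (circles) and for protein-coding genes (squares); the dashed line is the whole set at 14.8%. Transcript ends near a start stand at 35.6% and 39.3%, and ends away from starts at 13.8% and 19.5%.

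Higher H2A.Z at transcript ends was rare. The authors' higher list holds 0.518% of the set, or 318 peaks. Of these, 3 are annotated 3' UTR and 0 are annotated TTS. They are a peak of 629 bp at Pvalb, the calcium buffer parvalbumin, one of 501 bp at Abca5, an ABC transporter, and one of 501 bp at Slc16a7, a monocarboxylate transporter. None of the 931 peaks at gene ends with a known strand was in the higher list, which allows a share of up to 0.322% by the limit of 3 counts. Higher peaks were also rare at gene starts, at 0.0780% (8 of 10254). Gene bodies away from both ends stood at 0.454% and peaks outside genes at 0.697%.

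Of the 227 peaks, 198 have a protein-coding host gene, 17 a microRNA gene and 8 a lncRNA gene, and no gene hosts more than 1 of the peaks. The widest peak, of 9536 bp (chr11:116326486-116336021), spans the whole of Foxj1, the master regulator of motile cilia. Foxc1, a forkhead factor of mesenchyme and eye, is likewise spanned by its 6642 bp peak, and Apoa5, an apolipoprotein of triglyceride metabolism, by one of 5897 bp. The 3949 bp peak at the third forkhead gene, Foxd4, reaches within 1 kb of its start. At these short genes a lower transcript end and a lower start are the same region.

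Other wide peaks lie away from any nearest start. At Fgfr4, a receptor for fibroblast growth factors, the TTS peak is 7195 bp wide and centred 16561 bp from the start; the gene has 2 other lower peaks, in an exon and in an intron, while the peak at its start is in neither list. The TTS peak of Guca1a, a photoreceptor calcium sensor, is 5941 bp wide, and the 3' UTR peak of Npffr1, a neuropeptide FF receptor, is 5355 bp wide. Tinagl1 (4996 bp), Hexim2 (4887 bp), which encodes an inhibitor of the elongation factor P-TEFb, Diras1 (4868 bp), a small GTPase, and Arhgap27 (4729 bp) follow. Tmc8 (8339 bp), Lrg1 (5257 bp) and Fut7 (4698 bp) have wide TTS peaks that also cover a neighbour's start. The Mir6537 peak has 7789 bp.

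Median width was 1134 bp (959 to 1310 bp), beside 1034 bp for the other lower peaks and 977 bp for the whole set. The difference lies in the upper part of the distribution: 61 of 227 (26.9%, 21.2 to 33.1%) are wider than 2.5 kb, beside 10.3% of the other lower peaks and 14.9% of the set. Lower peaks annotated exon, intron and promoter-TSS stood at 10.9%, 14.0% and 11.3%. With ends drawn by distance instead of annotation, 18.2% of the 192 lower peaks at gene ends with a known strand are wider than 2.5 kb, beside 23.1% of the 739 unchanged peaks at such ends. At the other extreme 38 of the 227 (16.7%) have the minimum width of 501 bp, beside 15.4% of the other lower peaks.

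**Figure D4:**
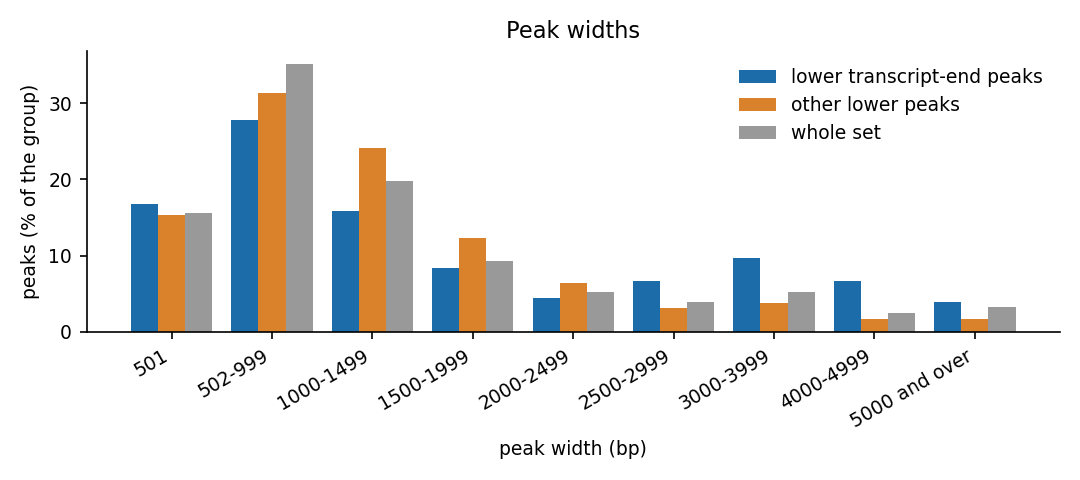
Width of lower transcript-end peaks, other lower peaks and all peaks of the set, in bp on the horizontal axis, as a percentage of each group. The lower transcript-end peaks have larger shares in every bin from 2.5 kb upward.

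H2A.Z at the other end of the same gene was read from the peak set. Starts came from the RefSeq tables, which need not hold every alternative start. For 65 hosts without a strand there, the gene boundary away from the peak was taken as the start, so it was inferred from the peak itself. Of 209 host genes with a start placed in either way, microRNA genes left out, 72 (34.4%) have a lower peak within 1 kb of it. An unchanged peak lies there in 65 (31.1%), no H2A.Z peak in 53 (25.4%) and both kinds in 5. In the other 14 the transcript-end peak itself reaches the start. Unchanged means in neither list. Among the 167 whose transcript-end peak covers no nearest start, 63 have a lower start, 53 an unchanged one and 43 none. Over the 140 protein-coding hosts with a strand in the tables, counting the transcript-end peak itself where it reaches the start, 42.9% have lower and no unchanged H2A.Z there (34.5 to 51.5%). Of these hosts, 32.1% have only unchanged H2A.Z at the start and 21.4% have no peak there. Read in the same way, all 17492 such protein-coding genes stood at 17.0%, with 41.0% unchanged and 40.7% without a peak at the start. Hosts whose own transcript-end peak reaches the start are lower there by selection. The shares of 42.9% and 17.0% therefore do not compare the other end of the gene alone. Hosts of lower exon and intron peaks stood at 63.1% and 58.5%, which also count the exon or intron peak itself. Of those peaks, 33.7% and 29.6% cover their nearest start, of whichever gene, beside 24.7% of the 227. How many exon and intron peaks reach the start of their host was not counted. The shares of 63.1% and 58.5% therefore cannot be compared with 42.9% as H2A.Z at the other end of a gene.

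Among genes with a lower peak at the end and at a promoter, the 8 with the widest end peaks are described here. Zfp423, a zinc finger factor of neural and adipocyte precursors, has a 3896 bp peak at its end and lower promoter peaks of 5558 bp and 884 bp among 6 other lower peaks. Cacnb1, a calcium channel subunit, has 3022 bp at its end and 1348 bp at its promoter. Nxph4, a neurexophilin, has 2775 bp and 1603 bp, and Cpne5, a copine, has 3081 bp and 1805 bp. Dnajb2, a co-chaperone, has 3425 bp and 1300 bp, and Kif19a, a kinesin of cilia, has 2766 bp and 501 bp. Rusc2 has 4216 bp and 1197 bp and Arhgap27 has 4729 bp and 1726 bp, both with unchanged H2A.Z peaks near their start as well. Another lower peak of any kind lies in 94 of 226 host genes (41.6%, 35.1 to 48.3%), beside 35.9% for other lower peaks in genes, where intron peaks stood at 48.3%, exon peaks at 38.3% and promoter-TSS peaks at 18.8%. It lies in 53.3% of 3' UTR hosts and 33.6% of TTS hosts.

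Host genes were counted in lists of known factors, which are not complete. The lists hold 4 of the 226 host genes as homeobox factors, 3 as forkhead, Sox, T-box or GATA factors, 4 as bHLH factors and 9 as zinc finger factors. Beside these shares of 1.77%, 1.33%, 1.77% and 3.98%, the 4870 genes that host other lower peaks have 1.60%, 0.821%, 0.616% and 2.46%. The homeobox genes in the list are Dlx1, Bsx, Gbx2 and Pitx1. Otp, a homeobox gene of the hypothalamus that the list lacks, has a 3' UTR peak of 3528 bp. Gbx2, which supports naive pluripotency in mouse embryonic stem cells and patterns the hindbrain border, has a TTS peak of 1137 bp and a lower peak of 1602 bp in its 5' UTR. It was the only host gene among 36 pluripotency genes, or 0.442%, beside 0.226% of the genes that host other lower peaks. Pitx1, a hindlimb factor, has a 3' UTR peak of 754 bp, and Bsx, a hypothalamic factor, a TTS peak of 1170 bp. The bHLH genes are Mxd4 (3913 bp), a partner of Max, Neurod6 (1158 bp), Atoh8 (657 bp) and Hes3 (626 bp). Sp7, the bone factor osterix (4315 bp), Zfp341 (4023 bp), Scrt1, a neural repressor (3915 bp), and Prdm11 (3795 bp) are the widest zinc finger cases beside Zfp423.

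In the list of Wnt, FGF, BMP, Notch and Hedgehog ligands and receptors were 3 host genes, or 1.33%, beside 1.68% of the genes with other lower peaks. They are Fgfr4, Wnt9b, a Wnt ligand of the developing kidney (1147 bp), and Bmp7, a BMP ligand (501 bp). Channels and transporters made up 15 host genes, or 6.64%, beside 5.03% of the genes with other lower peaks. Among them are the potassium channel Kcnj12 (3363 bp) and the transporter Slc10a4 (3014 bp). Mmp14, a membrane-bound matrix metalloproteinase (2915 bp), was the only host gene in the matrix list, which gives 0.442% beside 1.29%. Matn1, a cartilage matrix protein gene outside that list, has a TTS peak of 3654 bp. Olfr310 (501 bp) was the only host gene in the list of 1474 chemosensory receptor genes, which gives 0.442% beside 0.287%. The lists of histones, ribosomal proteins, protocadherins, 3'-end processing factors, R-loop processing factors, H2A.Z exchange complexes, Polycomb and Trithorax proteins, imprinted genes and feeder fibroblast markers hold 0 of the host genes each. These lists have between 0 and 34 of the 4870 genes with other lower peaks.

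Lif, the cytokine that the culture medium supplies, was picked out after its values were seen. Its 3' UTR peak of 1180 bp is centred 4518 bp from the nearest start, and a lower promoter peak of 3790 bp lies 2788 bp away, while the peak at its start in the RefSeq tables is in neither list. The TTS of Hotair, a lncRNA of the HoxC cluster chosen in the same way, has a peak of 807 bp.

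Lower transcript-end peaks lie close to other lower peaks. Another lower peak was found within 10 kb of 89 of 227 (39.2%, 32.8 to 45.9%), beside 24.2% of the other lower peaks, and the median distance to the nearest lower peak was 15.2 kb, beside 35.2 kb. By annotation, TTS peaks stood at 34.8% and 3' UTR peaks at 45.7%, beside 32.8% of lower exon peaks, 29.3% of intron peaks and 20.8% of promoter-TSS peaks. The nearest peak of the set is itself lower for 94 of 227 (41.4%), beside 29.3% for the other lower peaks and 11.4% for unchanged peaks. This share was 37.8% for TTS and 46.7% for 3' UTR peaks. For lower exon, intron and promoter-TSS peaks it was 37.5%, 32.4% and 27.3%. The nearest peak is higher for 0 of 227, beside 0.192% for the other lower peaks. All comparisons between these groups are of one treatment contrast, and none was tested.

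Extremes of distance show how varied the positions are. Mir194-2, Mir5625 and Mir6957 have the closest centres, 106, 107 and 123 bp past a start. Lower peaks annotated exon and intron come no closer than 0.101 and 0.104 kb, so the annotation sets this limit. Rnf165 (105796 bp), Fam189a1 (117476 bp) and Kcnh1 (262450 bp) have the farthest.

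Chromosome 11 holds 40 of the 227 peaks (17.6%, 12.9 to 23.2%), beside 9.01% of the other lower peaks, 6.43% of the peak set and 7.35% of protein-coding genes. Both annotations contribute, with 19 TTS and 21 3' UTR peaks. Exon, intron and promoter-TSS peaks of the lower list stood at 10.2%, 9.91% and 10.2% there. The most numerous group of lower ends within 1 Mb is 6 within 953 kb (chr11:102777788-103731279), at Adam11, Acbd4, Hexim2, Fmnl1, Arhgap27 and Wnt9b. Another 5 lie within 537 kb (chr11:97500029-98036597), at Arhgap23, Srcin1, Plxdc1, Cacnb1 and Stac2. Outside chromosome 11, groups of 4 within 1 Mb lie on chromosome 13 (Unc5a, Fgfr4, Slc34a1 and Pitx1), on chromosome 15 (Pfdn5, Sp7, Cistr and Hotair) and on chromosome 17.

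**Figure D5:**
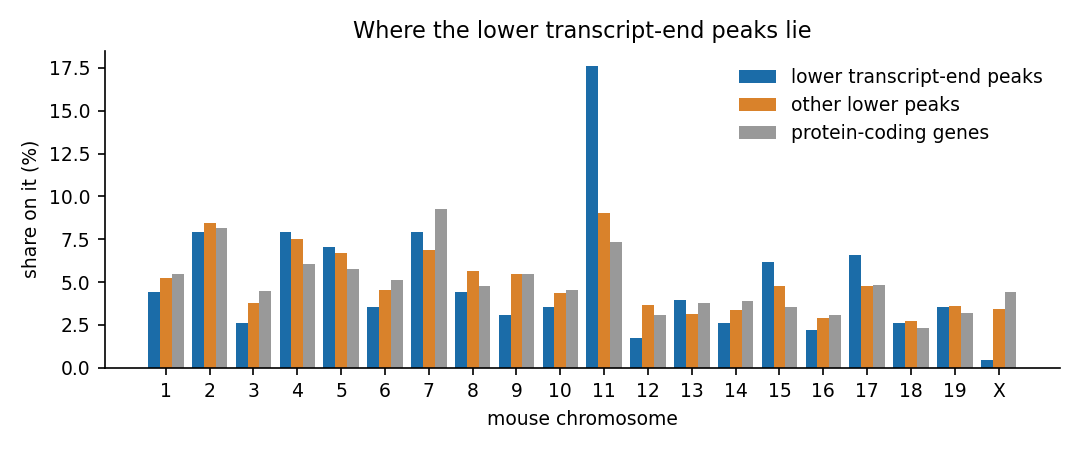
Share of lower transcript-end peaks, of other lower peaks and of protein-coding genes on each mouse chromosome, in percent. Chromosome 11 stands at 17.6%, 9.01% and 7.35%, and chromosome X at 0.441%, 3.41% and 4.41%.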

How the data were processed

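The submitters' processing notes name deepTools, HOMER, Picard, Bowtie2 and Trimmomatic, and the build GRCm38, with no roles or versions. Not given in the sources used here: peak caller, test, threshold and any pooling of replicates. HOMER annotatePeaks made the annotation of both lists, per the file headers. In the lower and higher lists, the score column as deposited holds 0 throughout and plays no part here. Other columns the authors deposited hold positions, annotation and distance to the TSS, used as they stand, with starts counted from 1.

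Host genes are those of the annotated transcript, matched for 226 of 227 peaks through RefSeq tables of GRCm38.p6. A peak covers a start if the deposited distance is at most 0.5 of its width. Strand came from the promoter and microRNA tables for 160 hosts and, for 65, from the gene boundary nearest the peak, a rule that was right for 158 of those 160. The other 2 have no place. Zones used 28097 genes with a strand (17492 protein-coding), so genes without one were counted as outside. This zone assignment was tested on simulated peaks.

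Peaks were described by counts, exact intervals and medians, with no test. The members and the 18 gene lists were chosen with earlier results of these data known. Named genes are the 15 widest peaks, the 8 widest with a lower promoter peak, the 8 widest near another gene's start, up to 5 per list, the higher peaks and the 3 at each extreme of distance; unnamed gene models were left out, and some genes that this rule names are not reported here. Other genes were chosen after their values were seen. Software was SciPy 1.17.1, pandas 2.3.3, numpy 2.4.6 and matplotlib 3.10.9 under Python 3.11.15.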

Additional observations from a re-analysis of the deposited data

How the results depend on the processing

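No paired analysis was possible because the files used hold lists of peaks without values per library, so the replicate numbers that both groups share could enter no fit, and no replicate could be left out. The 227 peaks become 135 with TTS alone and 92 with 3' UTR alone. Of the 227, 16.3% lie within 500 bp of a start, beside 22.5% within 1 kb and 34.8% within 3 kb. The share of host genes with another lower peak, 41.6%, is 11.9% when only lower promoter peaks count. The share with another lower peak nearby, 39.2% within 10 kb, is 23.8% within 5 kb and 57.3% within 20 kb. At gene ends 20.6% of peaks are lower, 13.8% without those within 1 kb of a start and 25.7% with protein-coding genes alone, and median width moves to 1404 bp without peaks of the minimum width. Other windows, overlap of any length, matching by symbol and, chosen after seeing the data, wider edges for covering a start moved their shares by less than the interval of the share. The rule that assigns an end or a start reads the peak centre and the starts in the tables, so wide peaks and genes with several starts are placed with least certainty. Without depth or values per library, no size of change can be given for any peak.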
